A study of Danio rerio with 2 samples.

Results

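The outer and the inner injured tissue of a zebrafish heart at 3 days post injury (dpi) were compared as 2 pools of consecutive cryosections. The outer pool was sections 1 to 6, at the wound end of the series, and the inner pool was sections 7 to 10, toward the muscle. These are 10 of the 78 sections of the study, which also holds sections 11 to 40 of this heart and 38 sections of a heart at 7 dpi. Both hearts were adult ventricles titled WT, with no allele, transgene or drug named for either, and both had been cryoinjured. Each was cut into 12 µm slices from the injury into the remote myocardium, and every slice was sequenced by CEL-seq, which counts tagged transcript ends in small RNA samples. There was 1 heart per day and no uninjured heart was analysed here. Sections of 1 heart are not replicates, so everything below is a description, with no test. Sections 1 to 10 were chosen by gene expression, in an earlier division of this heart into stretches, and the border after section 6 was set with earlier results of these data known. What sets them apart from deeper sections, or from each other, is therefore not a finding but a description.

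Freezing kills a part of the ventricle wall, and the dead muscle is cleared by leukocytes while a fibrin- and collagen-rich wound tissue forms in its place. Macrophages and neutrophils take up debris and release cytokines and proteases, and epicardial cells, fibroblasts and endocardium surround and enter the wound. In zebrafish, muscle cells next to the wound survive, turn on natriuretic peptide and other stress genes, and later divide to replace the lost muscle, a process in which BMP signalling takes part.

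The outer sections held 39968, 13545, 10842, 18951, 12073 and 14882 gene counts, and the inner sections 63754, 64542, 46269 and 50177. Genes detected per section numbered 1740 to 4660 in the outer and 5104 to 7044 in the inner sections. Depth therefore moved with the pools, and its part in the results was not tested. Section 1 was nearly as deep as section 9 and is given alone where it matters. It was also the outermost section, so its depth and its position cannot be told apart. The pools held 110261 counts (outer, 36.25% of them from section 1) and 224742 counts (inner). Levels are counts per 1000000 gene counts (CPM), so 1 count was worth 9.069 CPM in the outer and 4.45 CPM in the inner pool. Of 11134 genes with any count in sections 1 to 10, the 1231 with at least 30 were compared, among them 36 with exactly 30, while 39 genes with 29 were not. A fold is followed by its 95% interval, computed exactly from the pooled counts as Poisson numbers. The interval covers at most counting error, and neither the spread between sections nor the difference between hearts.

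Both pools had a lower level of muscle genes and a higher level of leukocyte genes than the deeper sections. Since sections 1 to 10 were chosen by gene expression, these marker levels describe the pools and are no independent check of the label of injured tissue. Summed over the cardiomyocyte contractile genes, the level was 6720 CPM in the outer and 20220 CPM in the inner pool, against 49680 CPM in sections 11 to 19 and 74510 CPM in sections 20 to 40. Leukocyte markers ran the other way, with 21440 CPM in the outer and 12910 CPM in the inner pool, 4777 CPM in sections 11 to 19 and 1183 CPM in sections 20 to 40. At the inner limit, section 10 had 15030 CPM of contractile and 13450 CPM of leukocyte genes. Section 11, just outside, had 34320 CPM of contractile and 8515 CPM of leukocyte genes. At the border between the pools, section 6 had 15590 CPM of contractile genes, which is within the inner range of 15030 to 24030 CPM, and section 7 had 24030 CPM. In both lists section 6 lay nearer to the inner sections than the other outer sections did. In whole sections, fewer cells of a type and less RNA per cell cannot be told apart.

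**Figure D1:**
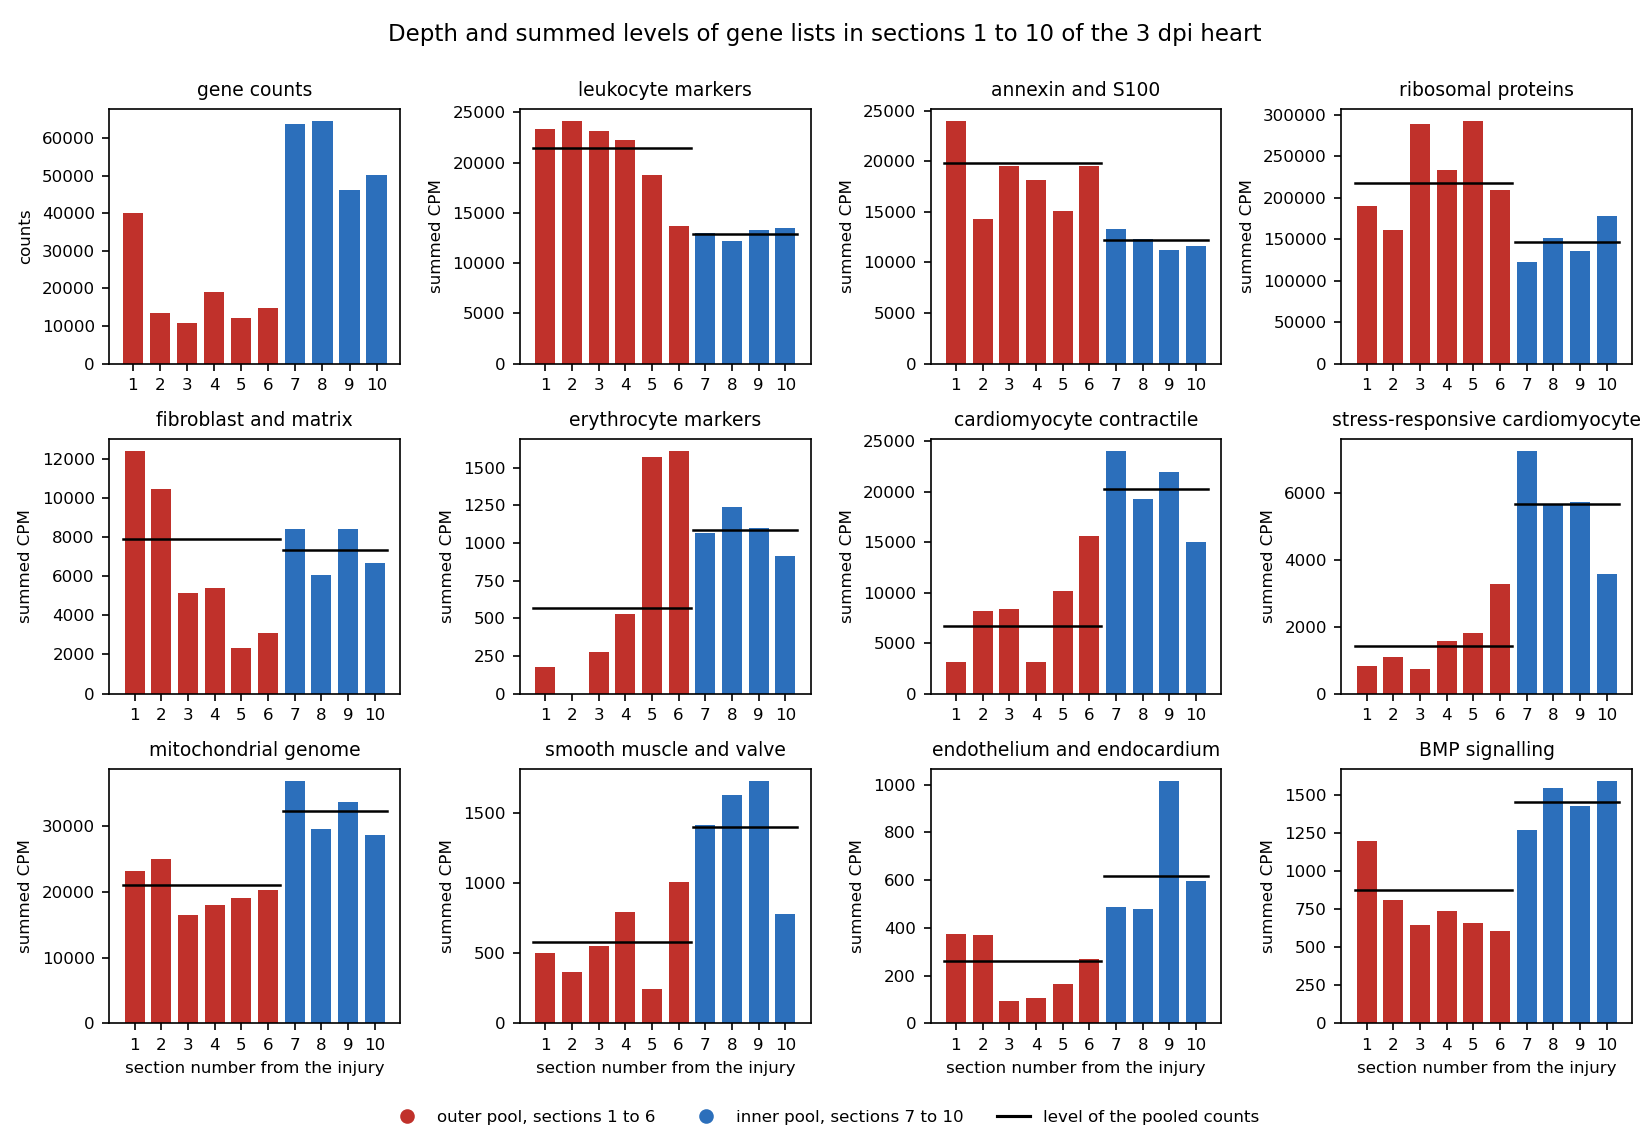
Gene counts per section, and the summed level (CPM) of 11 gene lists in each of sections 1 to 10 (outer in red, inner in blue; black lines are the levels of the pooled counts). Leukocyte genes stood at 13710 to 24140 CPM in the outer and 12180 to 13450 CPM in the inner sections, while stress-responsive cardiomyocyte, mitochondrial genome and endothelial genes were lower in every outer section than in every inner one.

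Among genes that passed the count minimum, more were low than high in the outer pool. That minimum was taken over both pools together, and the inner pool held more counts. A gene found only in the inner pool thus passed at a lower CPM than one found only in the outer pool. The split can therefore be built in part into the minimum. At least 2-fold higher in the outer pool were 46 genes (3.74% of those compared), and at least 2-fold lower were 183 (14.9%). With the pools scaled by the median of gene ratios, the split was 74 higher against 149 lower. The median log2 difference, outer minus inner, was −0.15 over all genes, with quartiles of −0.66 and 0.36, and the median-of-ratios scaling moved it to −0.005, so differences of lists below are read against −0.15. Leaving out, for each gene, the section with most of its counts in the pool where it was higher left 20 genes higher (1.62%) and 145 lower (11.8%). Among the 399 genes with at least 100 counts, 8 were higher and 34 were lower. Section 7 weighed most: without it 120 genes were lower in the outer pool, and with it moved into the outer pool 83 were. Without section 7 the count minimum was taken over the remaining sections, so fewer genes were compared. Moving it left the genes compared unchanged. All 6 outer sections lay above all 4 inner ones for 16 genes (1.3%), and below them for 48 (3.9%). Since the pools define the comparison, these shares are the background for the counts that follow, and nothing is read from them.

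**Figure D2:**
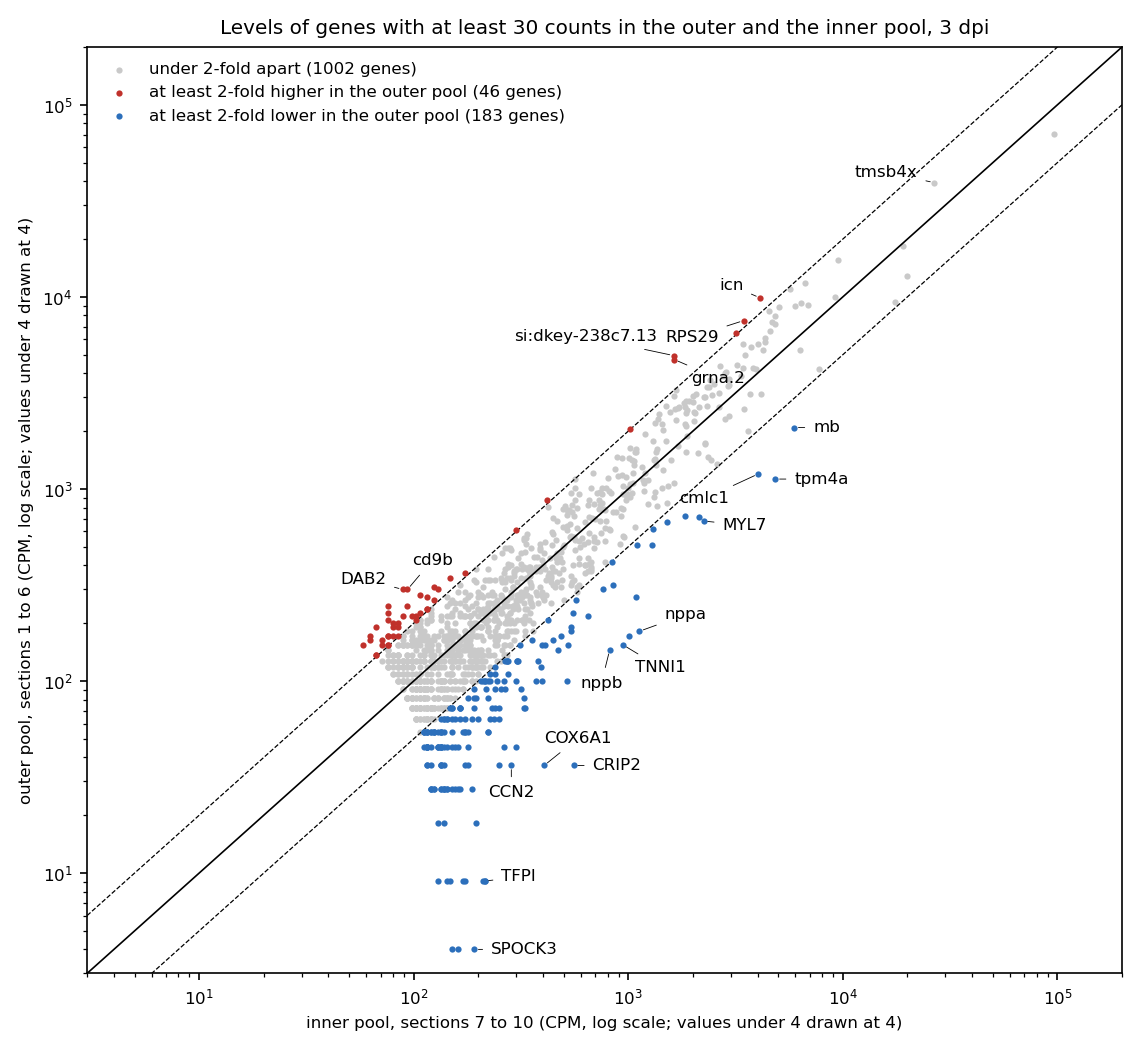
Level of each of the 1231 compared genes in the outer pool (vertical axis) and the inner pool (horizontal axis), in CPM on log scales; the solid line marks equal levels and the broken lines a 2-fold difference. The 46 genes higher in the outer pool stay within a few-fold of the line, whereas the 183 lower ones reach down to genes with 1 or 0 outer counts, such as TFPI and SPOCK3. Genes found only in the inner pool passed the count minimum at a lower CPM than genes found only in the outer pool.

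The granulin genes grna.1 and grna.2 made up a larger share of the counts in the outer pool. Granulins are growth-factor-like proteins that macrophages secrete. Another granulin gene, grna of the lysosomal list, had 54 outer and 87 inner counts and a log2 difference of 0.34. Of 14 compared leukocyte genes 3 were at least 2-fold higher in the outer pool and 0 lower, with a median of 0.41 against −0.15 over all genes. The strongest of them, grna.2, had 2760, 5030 and 6090 CPM in the lowest, median and highest outer section, against 2120, 1810, 1230 and 1180 CPM in sections 7 to 10. All outer sections lay above all inner ones, and the pooled level was 2.88-fold higher (2.52 to 3.30). Its neighbour in name, grna.1, had 3290, 6950 and 9410 CPM in the lowest, median and highest outer section and 3140, 3080, 3220 and 3250 CPM in sections 7 to 10. It too did not overlap and was 2.06-fold higher (1.85 to 2.28). The margin was under the worth of 1 count: section 6 had 3290 CPM and section 10 had 3250 CPM, and 1 count in section 6 was worth 67.2 CPM. The third, an MFAP4 gene (ENSDARG00000088745) of a family that marks zebrafish macrophages, had 166, 461 and 901 CPM in the lowest, median and highest outer section and 235, 201, 605 and 219 CPM in the inner ones. Here the sections overlapped, and the 2.04-fold difference (1.43 to 2.90) came to 0.56 on the log2 scale without section 1, which held 53.7% of its outer counts. Another compared MFAP4 gene (ENSDARG00000090783) had 88 outer and 129 inner counts and a log2 difference of 0.475.

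Much of the leukocyte sum was granulin. The genes grna.1 and grna.2 together made up 1237 of its 2364 outer and 1079 of its 2901 inner counts. With them the sum was 1.66-fold higher in the outer pool (1.57 to 1.75), and no section overlapped. Without them it was 10220 CPM in the outer and 8107 CPM in the inner pool, 1.26-fold higher (1.17 to 1.36), and the outer sections spanned 6129 to 14100 CPM around the 7282 to 9028 CPM of the inner ones. Markers of leukocytes in general differed by member: LCP1, an actin-bundling protein of blood cells, was 1.95-fold higher (1.04 to 3.66), whereas ptprc, the CD45 phosphatase of all leukocytes, had 16 outer and 40 inner counts and a log2 difference of −0.29. The antigen-presentation chaperone gene cd74a had 2258 CPM in the outer and 2016 CPM in the inner pool, and HMOX1, which breaks down haem, had 1061 CPM in the outer and 1014 CPM in the inner pool. Of genes of neutrophils and macrophages, the lysozyme gene lyz had 8 outer and 0 inner counts and the gelatinase gene MMP9 0 outer and 7 inner counts. The 8 antigen-presentation genes compared had a median of 0.07, and 0 of them were 2-fold apart.

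Among other outer-high genes, DAB2 and cd9b had few counts. DAB2, an endocytic adaptor, had 33 outer and 20 inner counts (3.36-fold higher, 1.87 to 6.18). The tetraspanin gene cd9b had 33 outer and 21 inner counts (3.20-fold, 1.80 to 5.83). Both overlapped between the pools, with at least 1 outer section at 0. lgals3bp.1, named for a galectin-binding secreted protein, had 369, 758 and 1180 CPM in the lowest, median and highest outer section, against 392, 372, 389 and 538 CPM in the inner ones (2.08-fold, 1.55 to 2.80). A gene without a descriptive name, si:dkey-238c7.13, had 545 outer and 366 inner counts and was 3.04-fold higher (2.65 to 3.47). Its sections overlapped, with 1770 CPM in the lowest outer section against 1950 and 2290 CPM in sections 9 and 10. Among lysosomal genes 0 were 2-fold higher and 1 was lower of 20, with a median of 0.14. NPC2, which carries cholesterol out of lysosomes, was 1.91-fold higher (1.41 to 2.58), and lgals3a, a galectin gene, was 3.19-fold lower (1.34 to 9.22).

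The S100 protein gene icn, ictacalcin, was another outer-high gene of high count. It had 5240, 9860 and 12400 CPM in the lowest, median and highest outer section, against 4990, 3810, 3650 and 3810 CPM in sections 7 to 10. No section overlapped, and the pooled level was 2.40-fold higher (2.2 to 2.63). Of 10 annexin and S100 genes, icn alone passed 2-fold, and the median was 0.25. The other members summed to 9913 CPM in the outer and 8098 CPM in the inner pool (1.22-fold higher, 1.14 to 1.32), with overlapping sections. ANXA1, a calcium-binding protein that limits inflammation, was 1.80-fold higher (1.38 to 2.34), but 67.0% of its outer counts were from section 1, without which the log2 difference was −0.10.

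Ribosomal protein genes were higher in the outer pool throughout. Of 64 compared, 64 had a higher outer level, although 2 passed 2-fold, and the median was 0.52, while 521 of all 1231 genes (42.3%) had a higher outer level. The list summed to 217700 CPM in the outer and 146200 CPM in the inner pool. The outer sections held 190200, 161500, 289500, 233300, 292600 and 209700 CPM, and the inner ones 123100, 151600, 136100 and 178200 CPM, so that section 2 lay below section 10. RPS29 had 4280, 7930 and 9960 CPM in the lowest, median and highest outer section and 3290, 3210, 3390 and 4030 CPM in the inner ones (2.18-fold higher, 1.97 to 2.41), without overlap. RPL30 (2.02-fold) and rps20 (1.95-fold) did not overlap either. Translation factors, by contrast, had a median of 0.12, with 0 of 24 genes 2-fold higher and 1, EEF2, 2.64-fold lower (1.23 to 6.49). The deepest outer section showed the ribosomal difference to a smaller degree, with a list median of 0.34 for section 1 against the inner pool and 0.62 for sections 2 to 6.

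Genes of the actin skeleton split by member. tmsb4x, thymosin beta, which holds actin monomers, had 31500, 38400 and 47800 CPM in the lowest, median and highest outer section and 29100, 26600, 23900 and 26300 CPM in the inner ones. It was 1.47-fold higher (1.42 to 1.53) without overlap, as was the monomer-binding profilin gene pfn1 at 1.48-fold (1.33 to 1.64). Cytoplasmic actin itself, actb2, had 18440 CPM in the outer and 18980 CPM in the inner pool. Lower in the outer pool were 4 of 26 genes, against 0 higher, and the share lower was near the 14.9% of all genes. They were rhoaa, a small GTPase that drives stress fibres, with 2 outer and 44 inner counts (10.8-fold, 2.82 to 91.9), arpc4l of the Arp2/3 complex (3.70-fold, 1.97 to 7.70), the myosin light chain gene myl6 with 10 outer and 60 inner counts, and an ARPC5 gene (ENSDARG00000039142) with 6 outer and 30 inner counts. Another ARPC5 gene (ENSDARG00000019062) ran the other way, with 17 outer and 19 inner counts (1.82-fold higher, 0.89 to 3.71). arpc4l had 0, 104 and 202 CPM in the lowest, median and highest outer section, against 282, 418, 454 and 339 CPM in the inner ones, and did not overlap.

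Paralogs of simple-epithelial keratin 18 ran in opposite directions. krt18b had 745, 864 and 1030 CPM in the lowest, median and highest outer section, against 722, 480, 648 and 399 CPM in the inner ones (1.56-fold higher, 1.18 to 2.04). krt18a.1 had 331, 522 and 776 CPM in the lowest, median and highest outer section, against 1130, 992, 1210 and 1990 CPM in the inner ones (2.11-fold lower, 1.61 to 2.79). In both genes no section overlapped, but for krt18b the margin was under the worth of 1 count. Its lowest outer section, section 5, had 745 CPM against 722 CPM in section 7, and 1 count in section 5 was worth 82.8 CPM. How reads that match several paralogs were counted is not given in the sources used here, so levels of closely similar genes, the granulins, globins and fibronectins included, are uncertain in their division. The 9 compared epicardial markers had a median of 0.31, with 0 at least 2-fold higher and 1, krt18a.1, lower, and the median was −0.03 when sections had equal weight. The keratin gene krt8, partner of the keratin 18 genes, had 3120 CPM in the outer and 3680 CPM in the inner pool. The epicardial transcription factor genes of the list were under 30 counts and so not compared. TCF21 had 1 outer and 12 inner counts, TBX18 and WT1 each 3 outer and 5 inner, and wt1b 3 outer and 4 inner.

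Matrix genes were uneven within the outer pool. Their sum was 12410, 10480, 5165, 5382, 2319 and 3091 CPM in sections 1 to 6, against 8439, 6043, 8407 and 6696 CPM in sections 7 to 10. Sections 1 and 2 were thus above every inner section, and sections 3 to 6 below. Of 17 genes compared, 1 was at least 2-fold higher and 2 were lower, with a median of 0.07, which was 0.76 for section 1 alone and −0.47 for sections 2 to 6. COL11A1, a minor fibrillar collagen, was 2.09-fold higher (1.31 to 3.34) with 62.5% of its outer counts in section 1 and a log2 difference of 0.30 without it. A COL1A1 gene (ENSDARG00000035809) had 269, 870 and 2880 CPM in the lowest, median and highest outer section, and its 1.15-fold higher level (0.951 to 1.40) became a log2 difference of −0.75 without section 1.

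The fibronectin genes, which code for a matrix protein deposited early in wounds, differed from each other. The higher outer level of FN1 ENSDARG00000019815 rested largely on section 1. FN1 ENSDARG00000019815 had 403, 811 and 2030 CPM in the lowest, median and highest outer section and 925, 465, 908 and 438 CPM in the inner ones. It was 1.77-fold higher (1.39 to 2.25), and section 1 held 60.9% of its outer counts. Without that section its log2 difference was 0.12. FN1 ENSDARG00000006526 had 0, 176 and 369 CPM in the lowest, median and highest outer section, against 674, 496, 800 and 678 CPM in the inner ones. This paralog was 2.98-fold lower (1.93 to 4.81) without overlap.

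Transcripts of the contractile apparatus formed the widest group lower in the outer pool. Of 19 compared contractile genes, 14 were at least 2-fold lower and 0 higher, and all 19 had the lower level in the outer pool, with a median of −1.69. The list was 3.01-fold lower (2.78 to 3.26), with 3102, 8195, 8393, 3166, 10190 and 15590 CPM in sections 1 to 6, against 24030, 19290, 21920 and 15030 CPM in sections 7 to 10. Section 1, the deepest outer section, had the lowest level, and section 6 overlapped section 10. cmlc1, a cardiac myosin light chain, had 651, 996 and 2960 CPM in the lowest, median and highest outer section and 5020, 3460, 3850 and 3710 CPM in the inner ones (3.37-fold lower, 2.81 to 4.08), without overlap. tpm4a, the cardiac tropomyosin, had 264, 1320 and 2550 CPM in the lowest, median and highest outer section and 5350, 4520, 5920 and 3650 CPM in the inner ones (4.31-fold lower, 3.58 to 5.24), also without overlap. The regulatory light chain MYL7 was 3.30-fold lower (2.58 to 4.26), the troponin inhibitor TNNI1 6.12-fold (3.73 to 10.7), the intermediate filament gene DES 4.01-fold (2.74 to 6.07) and pln1, named for phospholamban, the brake on the calcium pump, 5.79-fold (2.35 to 18.5). An ACTC1 gene (ENSDARG00000057911), coding for striated actin, had 1 outer and 39 inner counts. With section 7 moved into the outer pool the list median was −0.46, and for section 1 alone it was −3.03.

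The stress genes that surviving muscle cells turn on were lower still in the outer pool, 5 of 5 compared by more than 2-fold, with a median of −2.49. The median was −0.820 with section 7 moved into the outer pool, where an ACTA1 gene (ENSDARG00000055618) had a log2 difference of 0.166, and −5.436 for section 1 alone. In section 1 nppa and MUSTN1 had 1 count each, nppb and this ACTA1 gene 0, and HSPB1 25. The median of section 1 therefore rests on 1 count. nppa, coding for atrial natriuretic peptide, had 25.02, 179 and 605 CPM in the lowest, median and highest outer section, against 1270, 852, 1820 and 658 CPM in the inner ones. It was 6.21-fold lower (3.93 to 10.3). Its partner nppb had 0, 83.0 and 605 CPM in the lowest, median and highest outer section, against 894, 775, 908 and 698 CPM in the inner ones, and was 5.64-fold lower (3.38 to 10.1). Neither overlapped, and in both the highest outer section was section 6. For nppa the margin was under the worth of 1 count: section 10 had 658 CPM, and 1 count in section 6 was worth 67.2 CPM. MUSTN1, a muscle injury gene, was 5.84-fold lower (3.65 to 9.87), and the small heat shock protein gene HSPB1 2.99-fold (2.35 to 3.84). The list summed to 825.7, 1107, 737.9, 1583, 1822 and 3293 CPM in sections 1 to 6 and to 7262, 5686, 5727 and 3567 CPM in sections 7 to 10.

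Metabolic genes differed by member. The oxygen store myoglobin, mb, had 580, 2310 and 5510 CPM in the lowest, median and highest outer section and 4670, 5530, 7200 and 6900 CPM in the inner ones (2.85-fold lower, 2.47 to 3.29). The muscle creatine kinase gene ckma was 2.54-fold lower (1.74 to 3.81). Of 60 oxidative genes, 11 were at least 2-fold lower and 0 higher, with a median of −0.35, and the share lower was near the 14.9% of all genes. By any amount, 13 were higher, among them cox8a, a subunit gene of cytochrome oxidase, at 1.51-fold (1.14 to 1.99). Of the lower ones, a COX6A1 gene (ENSDARG00000054588) of the same complex had 0, 12.5 and 134 CPM in the lowest, median and highest outer section, against 565, 341, 411 and 279 CPM in the inner ones (11.2-fold lower, 4.21 to 41.8). The muscle-type subunit gene cox7a1 was 3.38-fold lower (2.02 to 5.99) and did not overlap either. For cox7a1 the margin was under the worth of 1 count. Section 6 had 403 CPM against 454 CPM in section 9, and 1 count in section 6 was worth 67.2 CPM. A further gene of the COX6A1 name, cox6a1 (ENSDARG00000022438), had 34 outer and 87 inner counts and a log2 difference of −0.33. Transcripts of the mitochondrial genome summed to 21050 CPM in the outer and 32270 CPM in the inner pool, a 1.53-fold lower level (1.46 to 1.61) with 0 genes of 10 past 2-fold and no section overlapping. In glycolysis 3 of 11 genes were lower, GAPDH by 2.54-fold (1.90 to 3.45), an ALDOA gene (ENSDARG00000034470) by 2.66-fold (1.85 to 3.94) and ALDOC with 6 outer and 28 inner counts. The interval of ALDOC (2.29-fold lower, 0.93 to 6.76) includes equal levels.

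**Figure D3:**
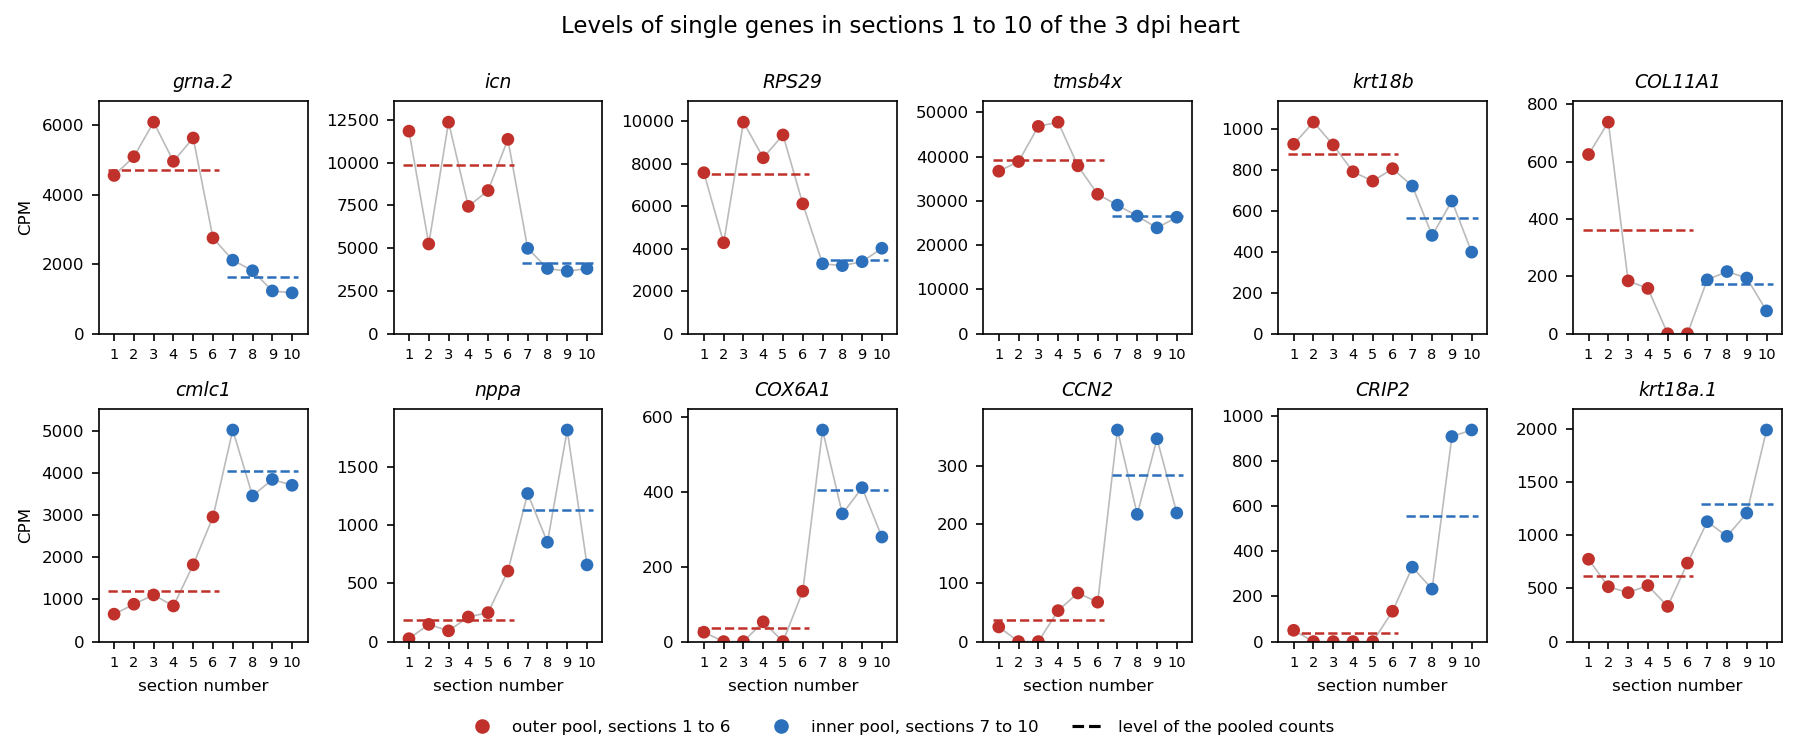
Level (CPM) of 12 genes in each of sections 1 to 10, outer in red and inner in blue, with broken lines at the levels of the pooled counts. In the upper row grna.2, icn, RPS29, tmsb4x and krt18b lie higher in every outer than in every inner section. For krt18b the margin is under the worth of 1 count. COL11A1 is high in sections 1 and 2 only and at 0 in sections 5 and 6. In the lower row all 6 genes lie lower in every outer section. For nppa that margin too is under the worth of 1 count.

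CCN2, TFPI and igfbp6b were among the genes lower in the outer pool. CCN2, connective tissue growth factor, a target of TGF-beta, had 0, 38.9 and 82.8 CPM in the lowest, median and highest outer section and 361, 217, 346 and 219 CPM in the inner ones (7.85-fold lower, 2.92 to 29.7). TFPI, the inhibitor of the tissue factor pathway of clotting, had 1 outer and 48 inner counts, with 204, 201, 281 and 179 CPM in the inner sections (23.5-fold lower, 4.03 to 949). Of the insulin-like growth factor axis, the binding protein gene igfbp6b had 1 outer and 38 inner counts.

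BMP targets differed by member. The Id genes code for inhibitors of differentiation that BMP signals induce directly. id2b had 1 outer and 48 inner counts, with 62.7, 263, 130 and 419 CPM in sections 7 to 10, and ID2 (ENSDARG00000055283) had 3 outer and 30 inner counts. ID1 had 0, 142 and 211 CPM in the lowest, median and highest outer section, against 157, 155, 324 and 498 CPM in the inner ones, and was 1.96-fold lower (1.1 to 3.72) with overlap. ID3, with 11 outer and 23 inner counts, had a log2 difference of −0.04. Of extracellular modulators, the BMP-binding protein gene FSTL1 was 1.5-fold lower (0.867 to 2.71), and HTRA1, a secreted protease, was 1.36-fold higher (0.877 to 2.08), both with intervals that include equal levels. Over the 6 BMP genes compared, 2 were at least 2-fold lower and 0 higher, and the median was −0.77. The list summed to 1201, 812.1, 645.6, 738.7, 662.6 and 604.8 CPM in sections 1 to 6, below the 1271, 1549, 1426 and 1594 CPM of sections 7 to 10. Of immediate response genes, JUN had 3 outer and 35 inner counts, all 3 outer ones in 1 section, while FOS (1.54-fold lower, 0.829 to 3.05) and JUNB (1.09-fold higher, 0.817 to 1.44) had intervals that include equal levels. LFNG, a glycosyltransferase that modifies Notch, had 6 outer and 38 inner counts. The other compared gene of the Notch list, DLD, carries the human symbol of a metabolic enzyme and is not counted as a Notch gene here.

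Vessel and smooth muscle genes were lower in sum in the outer pool. None of 19 endothelial genes reached 30 counts. Together they had 29 counts, or 263 CPM, in the outer and 139 counts, or 618.5 CPM, in the inner pool (2.35-fold lower, 1.57 to 3.64), with 92.2 to 375.3 CPM in the outer and 480.3 to 1016 CPM in the inner sections. The von Willebrand factor gene vwf had 0 outer and 17 inner counts, sele, a leukocyte adhesion molecule of activated endothelium, 2 outer and 27 inner counts, and cdh5, the endothelial cadherin, 2 outer and 13 inner counts. Other members were not lower once scaled to depth: the receptor gene tek had 4 outer and 3 inner counts, the adhesion gene pecam1a 4 outer and 6 inner counts, and a claudin gene, CLDN5 ENSDARG00000043716, 7 outer and 7 inner counts. Another CLDN5 gene (ENSDARG00000014059) ran the other way, with 0 outer and 18 inner counts. Of 4 smooth muscle genes, 3 were at least 2-fold lower: TAGLN ENSDARG00000045408 by 3.19-fold (1.5 to 7.77), MYL9 ENSDARG00000008030 by 2.98-fold (1.68 to 5.68) and MYL9 ENSDARG00000038123 by 2.94-fold (1.13 to 9.72). The list was 2.41-fold lower (1.84 to 3.20), and sections 4 and 6, with 791.5 and 1008 CPM, lay above section 10 with 777.2 CPM. CRIP2, a LIM protein of vessels and heart, had 4 outer counts and 125 inner ones, with 329, 232, 908 and 937 CPM in sections 7 to 10 (15.3-fold lower, 5.84 to 57.1). SPOCK3, a secreted proteoglycan gene, had no outer count and 43 inner ones, which is at least 7.03-fold lower when the outer pool is set to a floor of 3 counts.

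Red cell transcripts were unevenly spread over the outer sections. The 4 compared erythrocyte markers were lower in the outer pool, 2 of them by at least 2-fold, with a median of −1.25. Their list had 175.1, 0, 276.7, 527.7, 1574 and 1613 CPM in sections 1 to 6, against 1067, 1240, 1102 and 916.8 CPM in sections 7 to 10, so that sections 5 and 6 exceeded every inner one. The globin gene HBE1 ENSDARG00000089087 had 2500, 7480 and 39400 CPM in the lowest, median and highest outer section, against 24700, 23100, 15700 and 13400 CPM in the inner ones (1.55-fold lower, 1.46 to 1.65). hbaa2, an alpha globin gene, had 8 outer and 74 inner counts, and alas2, the erythroid enzyme of haem synthesis, 3 outer and 31 inner counts. The remaining compared markers were cahz (1.17-fold lower, 0.745 to 1.9) and SLC4A1 (1.26-fold lower, 0.69 to 2.4), both with intervals that include equal levels. The list median was −2.62 for section 1 alone and −0.66 for sections 2 to 6. Blood left in the tissue was not tested as a source.

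Of 12 genes of inflammation and cytokine response 1, the transcription factor JUN, was at least 2-fold lower in the outer pool and 0 higher, with a median of −0.24, and CEBPB, a factor of acute-phase genes, was 1.43-fold higher (0.985 to 2.07). Of 4 complement genes 0 passed 2-fold: c1qb, a subunit of the C1q recognition complex, was 1.69-fold higher (1.15 to 2.47), and its partner c1qa had 698.3 CPM in the outer and 698.6 CPM in the inner pool. The 5 haem and iron genes had a median of 0.06 and the 3 chemokine genes one of 0.06, with 0 past 2-fold in either list. Of 19 proteasome genes 2 were lower and 0 higher (median −0.35), and of 11 chaperone genes 3 were lower and 0 higher (median −0.29). The 5 cell cycle genes, 0 of them past 2-fold, had a median of −0.22, and the replication clamp PCNA was 1.46-fold lower (1.08 to 1.99). ALDH1A2, which makes retinoic acid in epicardium and endocardium, had 0, 180 and 726 CPM in the lowest, median and highest outer section, against 580, 527, 497 and 558 CPM in the inner ones (1.53-fold lower, 1.06 to 2.26). Section 1 held 29 of its 39 outer counts and had the highest level, and the other outer sections lay below every inner one. The growth factor midkine, MDK, was 1.58-fold higher (1.18 to 2.11), and its log2 difference without section 1 was 0.12. None of the 10 matched lymphocyte genes reached 30 counts.

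Followed into deeper sections, the genes lower in the outer pool took different courses. Of the 183, 76 had a higher level in sections 11 to 19 than in the inner pool and 107 a lower one, compared with 319 and 912 of all 1231 genes. At least 2-fold above the inner level in sections 11 to 19 were 33 of the 183, and at least 2-fold below it 24. Of all 1231 genes, 67 were at least 2-fold above and 202 at least 2-fold below. Because these genes were chosen for a high inner level, a lower level elsewhere is in part built into the choice. Several muscle genes were higher the deeper the sections lay. MYL7 had 680.2 CPM in the outer and 2243 CPM in the inner pool, 6350 CPM in sections 11 to 19 and 13700 CPM in sections 20 to 40, and nppa had 181.4 CPM in the outer and 1126 CPM in the inner pool, 2100 CPM in sections 11 to 19 and 2190 CPM in sections 20 to 40. The stress genes nppb, MUSTN1 and HSPB1 were instead highest in sections 11 to 19, as was DES. nppb had 818.7 CPM in the inner pool, 1300 CPM in sections 11 to 19 and 408 CPM in sections 20 to 40. The ACTA1 gene named above had 306 CPM in sections 11 to 19 and 1030 CPM in sections 20 to 40. The stress list summed to 10380 CPM in sections 11 to 19 and 9054 CPM in sections 20 to 40. CCN2 was highest in the inner pool and had 36.28 CPM in the outer and 284.8 CPM in the inner pool, 99.2 CPM in sections 11 to 19 and 79.9 CPM in sections 20 to 40. krt18a.1 had 616.7 CPM in the outer and 1299 CPM in the inner pool, 997 CPM in sections 11 to 19 and 257 CPM in sections 20 to 40. TFPI and CRIP2 were also highest in the inner pool, with 107 CPM of TFPI and 418 CPM of CRIP2 in sections 11 to 19. The genes drawn for these 2 courses were picked after their values were seen.

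**Figure D4:**
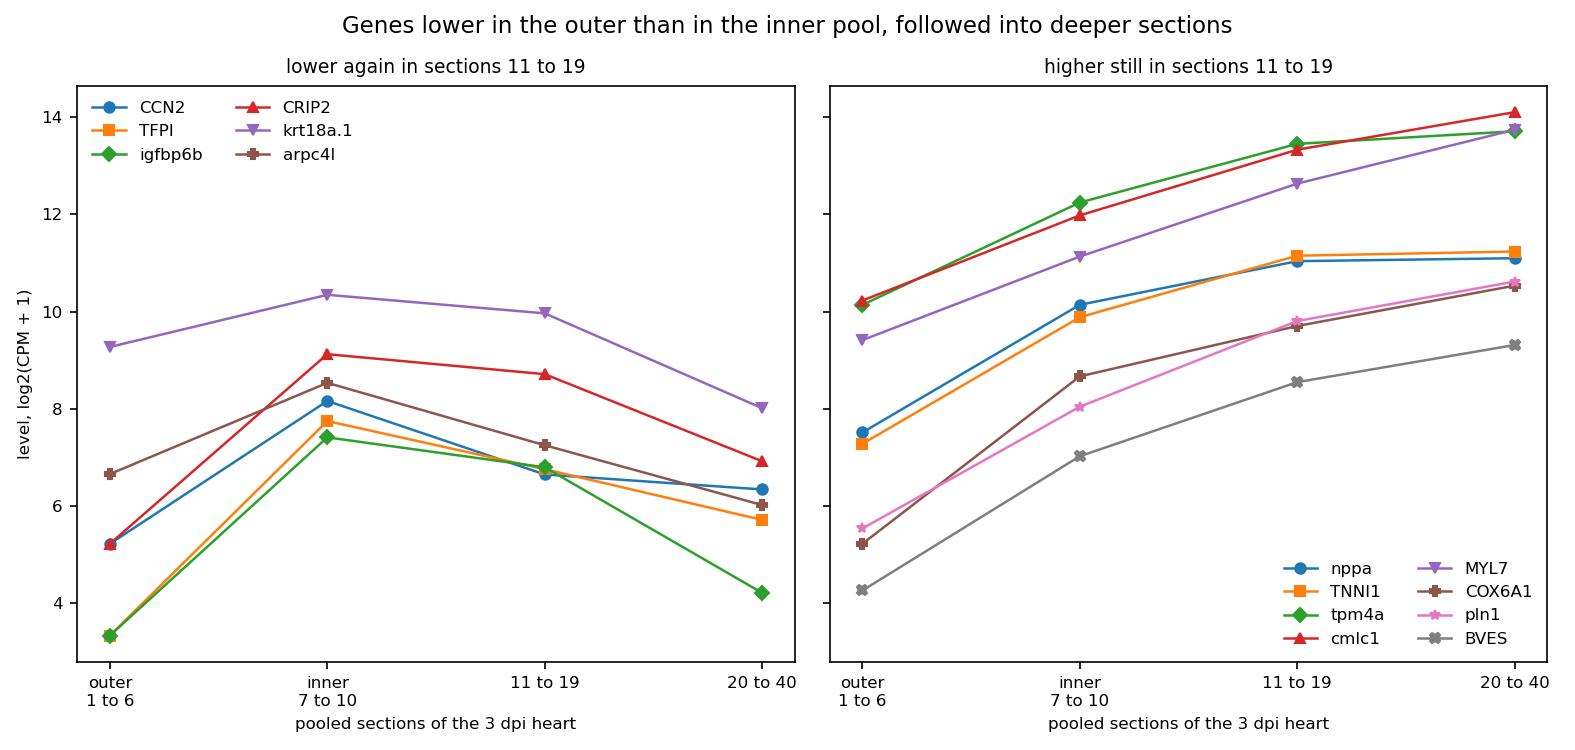
Level, as log2(CPM + 1), of 14 genes lower in the outer than in the inner pool, in the outer pool, the inner pool, sections 11 to 19 and sections 20 to 40 of the 3 dpi heart. The 6 genes on the left, CCN2 among them, are highest in the inner pool, and the 8 on the right, nppa and MYL7 among them, are higher in sections 11 to 19 than in the inner pool.

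Sections that the pools did not use were compared for the same genes. In sections 11 to 19 against 20 to 40, the median log2 difference of the 46 outer-high genes was 1.02, and in sections 11 to 19 the level of 24 (52.2%) was higher by 2-fold or more, against 343 of all 1231 (27.9%) with a median of 0.56. The 183 outer-low genes had a median of 0.25, with 35 (19.1%) higher and 7 (3.83%) lower. Lower by 2-fold or more were 11 (0.894%) of all 1231 genes and 0 of the outer-high ones. In the 7 dpi heart, sections 1 to 7 were set against sections 8 to 17, both at the wound end. Of 36 outer-high genes with at least 30 counts there, 6 (16.7%) were at least 2-fold higher and 3 (8.33%) lower in sections 1 to 7, and the median was 0.16. Only 93 of the 183 outer-low genes had enough counts there, and muscle genes such as MYL7, TNNI1, nppa and nppb did not. Of these 93, 4 (4.3%) were higher and 14 (15.1%) lower, with a median of −0.13. Over all 996 genes with enough counts the shares were 4.02% and 8.13%, with a median of −0.01. grna.2 had 187 CPM in sections 1 to 7 and 82.0 CPM in sections 8 to 17 at 7 dpi, far under its 3 dpi levels, whereas grna.1 had 2120 CPM in sections 1 to 7 and 2370 CPM in sections 8 to 17, and icn had 5200 CPM in sections 1 to 7 and 4770 CPM in sections 8 to 17. The share of outer-high genes higher at the 7 dpi wound end rested on 6 genes.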

How the data were processed

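The deposited values are whole-number read counts per Ensembl gene ID and section, 1 table per heart, not normalized by the authors. TRIzol-extracted RNA was amplified by CEL-seq, per the labels' protocols, and BWA 0.6.2 is named in the submitters' processing notes. Not given in the sources used here are the build, the annotation, the use of strand and any molecular identifiers. The unit of the deposited columns was entered as other, because the automatic test could not read their bare section numbers; every value was checked to be whole and at least 0. Section numbers were taken as the order of cutting.

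Spike-in rows (30 counts in sections 1 to 10) were dropped. Raw counts were summed per pool and scaled to CPM. Log2 differences are outer minus inner of log2(CPM + 1), folds are ratios of CPM with exact 95% Poisson intervals, and 0 counts were set to a floor of 3 per pool for bounds. The ID of most counts, ENSDARG00000080337, has no name in the table used, which named 1063 of the 1231 compared genes; it held 7.02% of outer and 9.61% of inner counts. Python 3.11.15, NumPy 2.4.6, pandas 2.3.3, SciPy 1.17.1 and Matplotlib 3.10.9 were used, and the folds and intervals were tested on simulated data. Reads are not known to be independent molecules, so an interval may be too narrow even for counting error. It leaves out the spread between sections.

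The members and the 32 gene lists (9 of cell type markers, 23 of pathways) were chosen with earlier results of these data known. Named were, of genes 2-fold apart also without their top section, the 15 of largest fold in each direction, and in each list up to 4 members along its median, up to 2 past 2-fold against it and the 3 of most counts. Globins, mb, ckma, DES, lgals3bp.1, ID3, ptprc, cox8a, grna, the genes under 30 counts and myl6 were named after their values were seen. So were ARPC5 ENSDARG00000039142, MFAP4 ENSDARG00000090783 and cox6a1 ENSDARG00000022438. The comparison with 7 dpi sections 8 to 17 was also added then. Lists were matched by symbol without regard to case, which can join paralogs. Some genes that met the rule are not reported here. No test was made, since each day has 1 heart.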

Additional observations from a re-analysis of the deposited data

How the results depend on the processing

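No paired analysis was possible because each day had 1 heart and no test was made. The count of genes at least 2-fold higher in the outer pool, 46, was 74 with median-of-ratios scaling, 98 with section 1 as the outer pool, 20 with each gene's top section left out, 8 at a minimum of 100 counts and 335 at a minimum of 10, where single counts weigh more. The count of lower genes, 183, was 83 with section 7 moved into the outer pool, 34 at a minimum of 100 counts and 818 at a minimum of 10. Leaving out each section in turn gave 36 to 61 higher and 120 to 209 lower genes. There, and with section 1 as the outer pool, the count minimum was taken over the sections used. The number of genes compared therefore changed as well. The median of all genes, −0.152, was −0.005 with median-of-ratios scaling, −0.032 for section 1, −0.065 with section 7 moved, 0.046 at a minimum of 100 counts, and −0.223 to −0.093 with single sections left out. Of the 183 lower genes 159 were still 2-fold lower with section 1 as the outer pool, 137 with sections 2 to 6, 161 with equal section weights and 57 with section 7 moved. Of the 46 higher genes 36, 26, 27 and 16 were still 2-fold higher in those settings. Of 24 list medians, 12 kept their sign in every setting and 0 of those past 0.5 turned; the actin, annexin and S100, epicardium, matrix and cell cycle medians were among those that changed sign. Of 54 genes followed past 2-fold, 53 kept their sign in every setting; ACTA1 ENSDARG00000055618 turned to 0.166 with section 7 moved. The causes were not tested. Depth limits the outer pool most: 28 of the lower genes had 1 to 3 outer counts, and sections 2 to 6 had at most 18951 counts each.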
